A study of Homo sapiens with 4 samples.

Results

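Intermediate filaments are the tough, rope-like polymers of the cytoplasm and the nuclear lamina, and 9 of their genes were followed here among 17687 genes measured in KGN cells, a human line derived from a granulosa cell tumour. The genes were the simple keratins KRT18, KRT19, KRT8 and KRT7, the related keratin KRT80, the mesenchymal filament VIM, the neural and progenitor filament NES, and the lamins LMNB1 and LMNA. They form a named list chosen by the measured siRNA difference of KRT18, which was much lower after knockdown of YAP and TAZ. The siRNA differences below therefore describe the values behind that choice and carry no test. Each of the 9 genes had 1 probe set that named no other gene.

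Cells were transfected with a pair of siRNAs, to YAP and to TAZ (siYT, at 5 nM each), or with control siRNA (siNC, 10 nM). From 48 h on they were kept for 24 h in fresh medium with 0.5 mM 8Br-cAMP, which enters cells and mimics cyclic AMP, or without it. The 4 groups were siYT, siNC, siYT+8Br-cAMP and siNC+8Br-cAMP, all of the same line, and each was 1 Clariom S Human array of total RNA. With 1 array a group, no difference could be set against the spread between cultures, and fewer cells of a kind and less RNA per cell cannot be told apart.

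Intermediate filament proteins share a coiled-coil rod. Keratins form filaments only as pairs of an acidic type I chain and a basic type II chain. KRT8 and KRT18 are the usual pair of simple epithelia and are also made by granulosa cells and their tumours, often beside vimentin, which can assemble alone. The lamins line the inner nuclear membrane: A-type lamins mark stiff, differentiated nuclei, and LMNB1 is high in dividing cells and is lost in senescent ones. YAP and TAZ, the coactivators that the Hippo kinases restrain, act through TEAD factors, and they respond to tension in the cytoskeleton.

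Levels are deposited log2 signals, and a level filter of 6.22, the median over all gene-named values, sets low signals apart. The 95th percentile of the negative controls was higher, 6.53 to 7.29 on the 4 arrays, so values just above it are not clear of the background. A gene was called in a comparison when 2 arrays differed by at least 1 on this scale, which is 2-fold, and the higher one reached the filter. A call in both media or after both siRNAs needed each difference to reach that size in the same direction. For these calls, and for the difference of differences below, the highest of all 4 arrays had to reach the filter. Of the 9 genes, 7 reached it on at least 1 array, and KRT19 and NES on none. The siRNA targets themselves were lower: YAP1 was at 6.80 in siYT and 9.48 in siNC, and at 6.29 in siYT+8Br-cAMP and 9.46 in siNC+8Br-cAMP. WWTR1, which encodes TAZ, was at 5.45 in siYT and 7.58 in siNC, and at 5.35 in siYT+8Br-cAMP and 9.13 in siNC+8Br-cAMP. Of 11 measured granulosa markers, 6 reached the filter on some array, among them CYP19A1 and INHBA, while FOXL2, AMHR2, INHA, NR5A2 and HSD17B1 did not. By array, 4 reached it in siYT, 3 in siNC, 5 in siYT+8Br-cAMP and 3 in siNC+8Br-cAMP, so the count differed between arrays. CYP19A1 was at 5.04 in siNC. FSHR and NR5A1, at most at 6.63 and 6.35, stayed under 6.95, the 95th percentile of all negative controls. With the siRNA in both media CYP19A1 and FSHR were called higher and FST lower, beside 3.44% and 3.89% of all genes. Of 13 measured epithelial markers other than keratins, 12 were under the level filter throughout, EPCAM and CDH1 included, and only CLDN7 reached it.

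Start-site windows, 250 bases before to 50 after an annotated start, were available in RefSeq (GRCh38.p14) for KRT8, VIM, NES, LMNB1 and LMNA, 8 windows in all. They were searched on both strands for the TEAD core GGAATG, the AP-1 site TGANTCA, the cyclic AMP response element TGACGTCA and the NF-Y box CCAAT, which is frequent before cell cycle genes. Among all 35116 windows of that length in the table, 14% held the TEAD core, 7.71% the AP-1 site, 1.85% the cyclic AMP element and 34.6% the NF-Y box. The TEAD core lay in 1 of the 8 windows, that of KRT8, and the NF-Y box in 1 window each of LMNA and LMNB1. None of the 8 held the AP-1 site or the cyclic AMP element. The windows of KRT8 (chr12:52926420-52926719, minus strand) and LMNB1 (chr5:126776886-126777185, plus strand) are shown, since they hold these matches beside the keratin partner with a small siRNA difference and the lamin with a large one. Capitals mark the TEAD core in KRT8 and the reverse strand of the NF-Y box in LMNB1.
KRT8: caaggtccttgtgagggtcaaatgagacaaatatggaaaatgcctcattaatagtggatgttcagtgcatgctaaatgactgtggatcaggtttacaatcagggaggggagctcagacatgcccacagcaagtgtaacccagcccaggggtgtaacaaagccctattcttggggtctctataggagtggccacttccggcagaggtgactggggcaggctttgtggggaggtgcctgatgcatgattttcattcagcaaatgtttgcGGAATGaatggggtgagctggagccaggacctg
LMNB1: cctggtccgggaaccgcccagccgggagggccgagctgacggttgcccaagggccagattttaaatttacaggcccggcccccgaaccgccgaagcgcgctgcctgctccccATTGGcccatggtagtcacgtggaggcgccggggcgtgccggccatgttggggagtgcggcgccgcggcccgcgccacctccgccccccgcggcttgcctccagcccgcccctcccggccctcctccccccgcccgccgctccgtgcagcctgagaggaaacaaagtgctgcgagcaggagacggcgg
The KRT8 window belongs to a start that lies inside the gene as annotated, so other starts exist for it. The match begins at position 18 after the start in KRT8, and at position -138 before it in LMNB1.

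**Figure D1:**
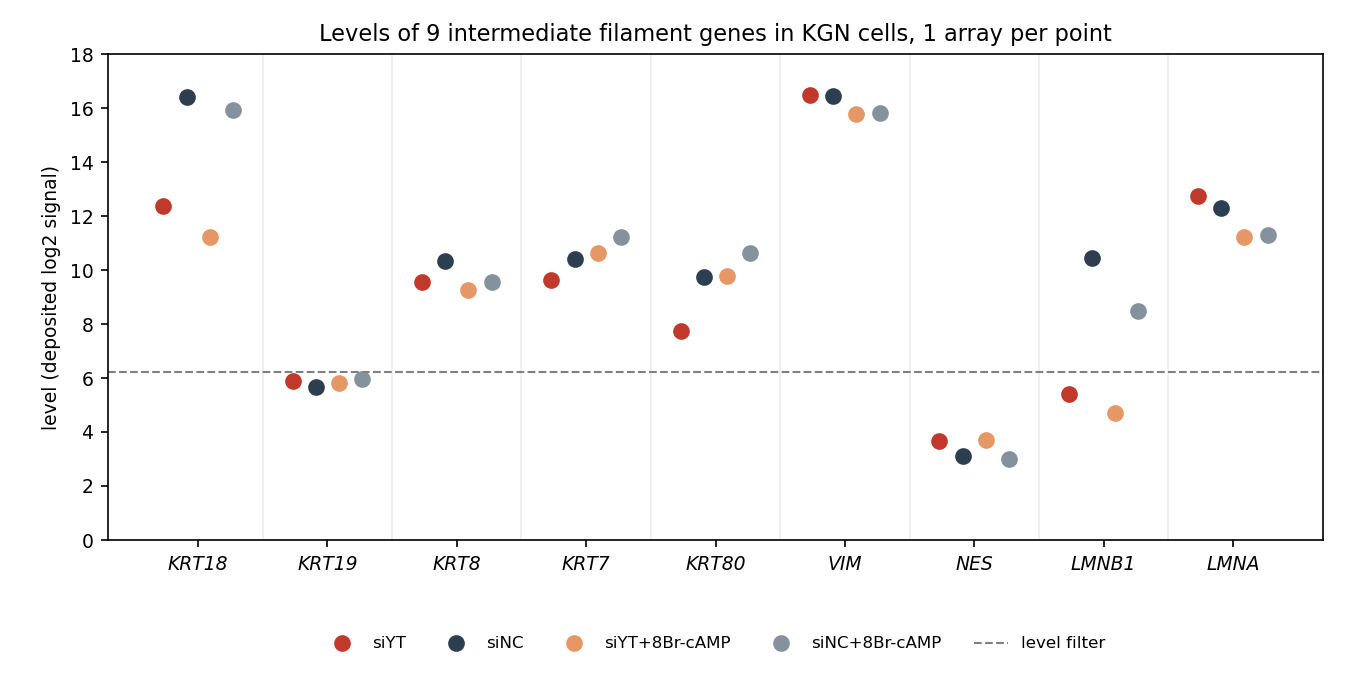
Deposited log2 signal (vertical axis) of the 9 genes, with 1 point for each array, in the order siYT, siNC, siYT+8Br-cAMP and siNC+8Br-cAMP, and the level filter of 6.22 as a dashed line. KRT18 and LMNB1 are lower on both siYT arrays than on both siNC arrays, whereas VIM lies between 15.76 and 16.47 everywhere.

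KRT18, the type I chain of the simple keratin pair, was far lower after YAP/TAZ siRNA than after control siRNA in both media. Its level was 12.38 in siYT and 16.40 in siNC, a difference of -4.02, which is 16.2-fold lower. With 8Br-cAMP it was 11.22 in siYT+8Br-cAMP and 15.92 in siNC+8Br-cAMP, a difference of -4.71, which is 26.1-fold lower. All 4 values also stood above the 95th percentile of the negative controls. The mean of both differences, -4.36, was the 17th lowest of the 9752 genes that reached the filter. Deposited values past 16 exceed what a 16-bit scanner records, so they may have been rescaled, and folds are those of the deposited units.

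KRT19, the smallest type I keratin, which lacks a tail, stayed under the filter at 5.90 in siYT, 5.65 in siNC, 5.81 in siYT+8Br-cAMP and 5.98 in siNC+8Br-cAMP. No level of it was therefore told from background. Between KRT18 and KRT19, only KRT18 was thus measured above the filter.

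The type II chains differed much less. KRT8, the usual partner of KRT18, was at 9.54 in siYT and 10.33 in siNC, and at 9.26 in siYT+8Br-cAMP and 9.57 in siNC+8Br-cAMP. Its siRNA differences of -0.79 and -0.31 were not called, whereas those of KRT18 were further from 0 by -3.23 and -4.40. In size, 36.6% and 67.5% of the genes that reached the filter differed by at least as much as KRT8 without and with 8Br-cAMP. KRT7, a type II keratin of simple and glandular epithelia, was at 9.63 in siYT and 10.40 in siNC, and at 10.64 in siYT+8Br-cAMP and 11.21 in siNC+8Br-cAMP, with uncalled siRNA differences of -0.77 and -0.57. KRT80, a type II keratin found near desmosomes and the cell cortex, was at 7.75 in siYT and 9.74 in siNC, a called difference of -2.00. With 8Br-cAMP it was at 9.79 in siYT+8Br-cAMP and 10.63 in siNC+8Br-cAMP, and the difference of -0.84 was not called. KRT8, KRT7 and KRT80 were each lower on the siYT array than on its siNC array in both media, by less than KRT18.

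VIM, which encodes vimentin, the filament of mesenchymal cells, hardly differed with the siRNA. It was at 16.47 in siYT and 16.44 in siNC, and at 15.76 in siYT+8Br-cAMP and 15.80 in siNC+8Br-cAMP, so that the siRNA differences were 0.03 and -0.04. Of the genes that reached the filter, 97% and 95.2% differed by at least as much. NES, which encodes nestin, was at 3.66 in siYT, 3.12 in siNC, 3.70 in siYT+8Br-cAMP and 2.99 in siNC+8Br-cAMP, all under the filter and near the negative control medians of 3.53 to 3.67.

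The lamins parted. LMNB1 was at 5.40 in siYT and 10.44 in siNC, a difference of -5.04, which was the 6th lowest of the 9752 genes. With 8Br-cAMP it was at 4.69 in siYT+8Br-cAMP and 8.48 in siNC+8Br-cAMP, a difference of -3.79. Both siYT values lay under the filter, so the folds of 32.9 and 13.9 depend on the background. LMNA, which encodes lamins A and C, was at 12.73 in siYT and 12.29 in siNC, and at 11.24 in siYT+8Br-cAMP and 11.28 in siNC+8Br-cAMP, with siRNA differences of 0.44 and -0.04 that were not called.

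Over the 9 genes, 3 were called lower and 0 higher with the siRNA without 8Br-cAMP (KRT18, KRT80 and LMNB1), where 7.32% of all genes were called lower and 7.60% higher. With 8Br-cAMP 2 were called lower and 0 higher (KRT18 and LMNB1), where the shares of all genes were 5.94% and 5.52%. In both media 2 were called lower, KRT18 and LMNB1, and 0 higher, against 3.89% and 3.44% of all genes. The genes were chosen with this comparison known, so nothing is read from these counts. The median siRNA difference of the 9 was -0.77 without and -0.31 with 8Br-cAMP, where that of all genes was 0.02 and 0.06.

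**Figure D2:**
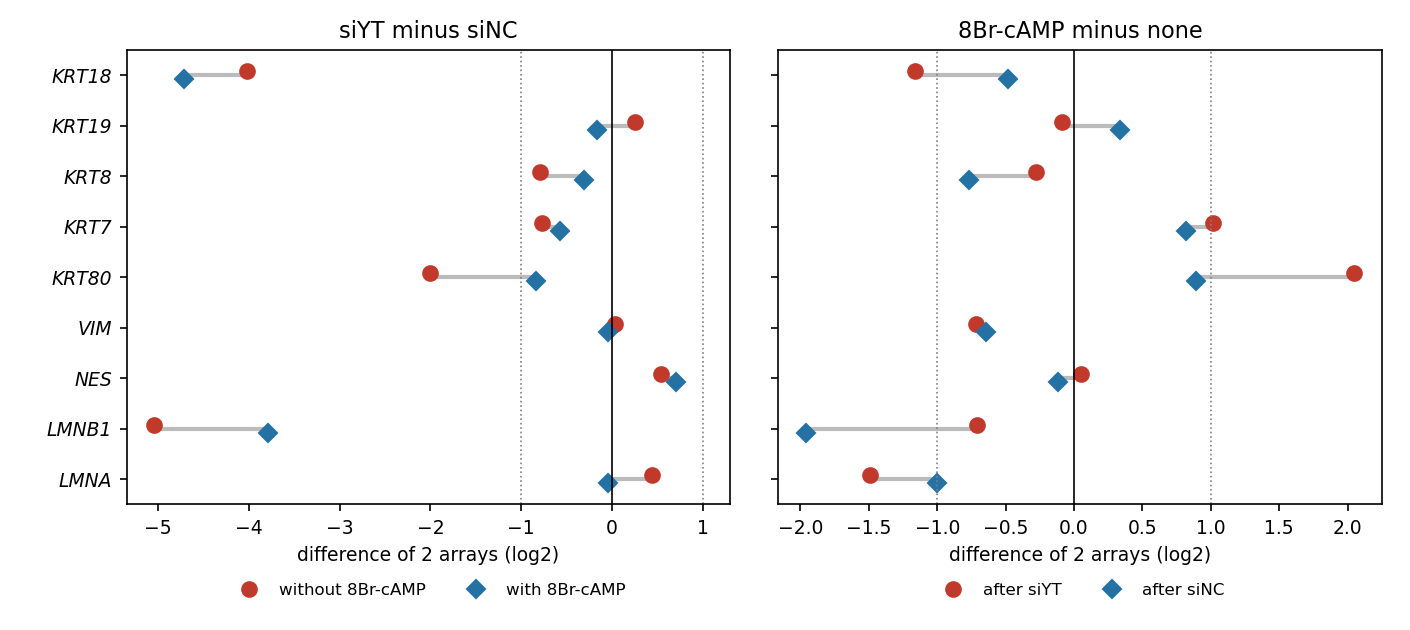
Differences of 2 arrays on the log2 scale (horizontal axis) for each gene. Left, siYT minus siNC without (circles) and with 8Br-cAMP (diamonds). Right, 8Br-cAMP minus none after siYT (circles) and after siNC (diamonds). Dotted lines mark a size of 1, and grey bars join the pair of differences of 1 gene. KRT18 and LMNB1 lie beyond -3 on the left, and KRT7 and KRT80 lie right of 0 on the right while KRT8, KRT18, VIM and the lamins lie left of it.

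The 8Br-cAMP comparison, on which the genes were not chosen, asked how they differed with the cyclic AMP analogue after either siRNA. KRT7 and KRT80 were higher with it after both siRNAs, and KRT18, KRT8, VIM, LMNB1 and LMNA were lower after both. The comparisons after siYT and after siNC share no array, but each shares its arrays with the siRNA comparisons. After siYT 2 of the 9 genes were called higher and 2 lower, where 4.06% of all genes were called higher and 4.15% lower. After siNC 0 were called higher and 2 lower, where the shares were 4.32% and 3.74%. LMNA was the 1 gene of the 9 called lower after both siRNAs and 0 were called higher, against 1.31% and 1.74% of all genes.

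KRT80 had the largest 8Br-cAMP difference of the 9 after siYT, at 9.79 with and 7.75 without 8Br-cAMP, which is 4.13-fold higher, and was at 10.63 with and 9.74 without it after siNC, which is 1.85-fold higher. In a limma model over all genes that added a term for the siRNA and one for 8Br-cAMP, the 8Br-cAMP term of KRT80 was 1.47 (SE 0.356, adjusted p = 0.0716). KRT7 was at 10.64 with and 9.63 without 8Br-cAMP after siYT, and at 11.21 with and 10.40 without it after siNC (limma, 0.92, SE 0.308, adjusted p = 0.186). Its difference of 1.02 after siYT lay at the limit for a call.

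LMNA was at 11.24 with and 12.73 without 8Br-cAMP after siYT, a difference of -1.49, and at 11.28 with and 12.29 without it after siNC, a difference that only just reached the size for a call. Its limma term was -1.25 (SE 0.315, adjusted p = 0.0834). LMNB1 was at 8.48 with and 10.44 without 8Br-cAMP after siNC, 3.88-fold lower, while after siYT it was at 4.69 with and 5.40 without, both under the filter (limma, -1.33, SE 0.363, adjusted p = 0.102). VIM was 1.64-fold lower with 8Br-cAMP after siYT and 1.56-fold lower after siNC, so its differences were close to each other (limma, -0.68, SE 0.306, adjusted p = 0.340).

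KRT18 was at 11.22 with and 12.38 without 8Br-cAMP after siYT, which was called, and at 15.92 with and 16.40 without it after siNC, which was not (limma, -0.82, SE 0.324, adjusted p = 0.268). KRT8 differed by -0.28 after siYT and -0.77 after siNC, so within the pair KRT18 had the larger difference after siYT and KRT8 after siNC. The limma term of KRT8 was -0.52 (SE 0.315, adjusted p = 0.497).

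By limma 0 of the 9 genes passed at an adjusted p of 0.05, where 1.81% of all genes passed. An unadjusted p under 0.05 was found for 5 of them (KRT18, KRT7, KRT80, LMNB1 and LMNA) and for 14.7% of all genes. The model has 1 residual degree of freedom, and its error holds any interaction of siRNA and 8Br-cAMP as well as array noise, so its p-values say nothing of how far cultures vary. The count of 0 depended on the processing: KRT80, LMNA and LMNB1 passed (adjusted p = 0.0235, 0.0228 and 0.0351 by limma) after cyclic loess between arrays, and also when only genes that reached the filter were tested.

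Taking the 8Br-cAMP difference after siNC from that after siYT gives a difference of differences. It was 1.16 for KRT80 and 1.25 for LMNB1, the 2 called genes, both higher, where 3.57% of all genes were called higher and 4.82% lower. KRT80 was thus 1.16 log2 units less low after YAP/TAZ siRNA with 8Br-cAMP than without. That of LMNB1 rests on siYT values under the filter. KRT18 had -0.68, KRT8 0.49, LMNA -0.48, KRT7 0.20 and VIM -0.07, none of them called. With 4 arrays this quantity has no residual degree of freedom and no test.

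Genes of cell division moved with KRT18 and LMNB1. All 12 genes of a proliferation list met the call for lower with the siRNA in each medium, beside 3.89% of all genes in both media, by -4.77 to -3.04 without and by -4.91 to -3.17 with 8Br-cAMP. Their summed level was 89.5 in siYT and 132.9 in siNC, and 76.8 in siYT+8Br-cAMP and 126.0 in siNC+8Br-cAMP. The marker MKI67 was at 8.81 in siYT and 12.07 in siNC, and the cyclin CCNA2 at 9.37 in siYT and 14.14 in siNC. The siRNA differences of KRT18 lay within the range of these genes in both media, and that of LMNB1 below it without and within it with 8Br-cAMP. With 8Br-cAMP, 7 of the 12 were called lower after siYT and 2 after siNC, beside 4.15% and 3.74% of all genes, with list medians of -1.10 and -0.47. MKI67 was called lower after both siRNAs. AURKB, a mitotic kinase, met the rule for both siRNAs through its siNC arrays, at 7.48 with and 8.89 without 8Br-cAMP. After siYT it was at 3.80 with and 5.25 without, both under the filter, and was not called in that comparison. AURKB passed limma (-1.43, SE 0.306, adjusted p = 0.0475), a term that rests in part on these low siYT values. KRT18 differed by -1.16 after siYT and -0.48 after siNC, and LMNB1 by -0.71 and -1.96. The part of cell division in these results was not tested.

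Likeness of pattern was measured as the root mean square difference of levels, each gene less its own mean, over the 4 arrays, among genes that reached the filter. Nearest to KRT18 were SHCBP1 (0.11), the mitotic kinase TTK (0.12) and CDK1 (0.20), the kinase that drives entry into mitosis. Nearest to LMNB1 were CEP55 (0.25), which acts in the last step of cytokinesis, CDC20 (0.26), an activator of the anaphase-promoting complex, and NDC80 (0.27), a kinetochore protein. Nearest to KRT80 were KIF18A (0.23), PMPCA (0.28) and LRP8 (0.28). The nearest to KRT8 were SEMA5A (0.03), DPH7 (0.03) and CRCP (0.04), to KRT7 TMEM33 (0.04), MFAP3L (0.07) and H1-2 (0.08), to VIM TOM1L1 (0.02), MAPK6 (0.03) and MAP4K5 (0.03), and to LMNA PTMS (0.07), RABL2B (0.08) and ANKRD36C (0.08). With 4 arrays many genes share a pattern, and small distances come easily to genes that vary little. Most of the KRT18 pattern is the siRNA difference on which the list was chosen, so any near gene has to share that fall. The LMNB1 pattern is likewise mostly its siRNA difference. For KRT18 and LMNB1 the distances therefore add no separate evidence to the siRNA differences above.

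**Figure D3:**
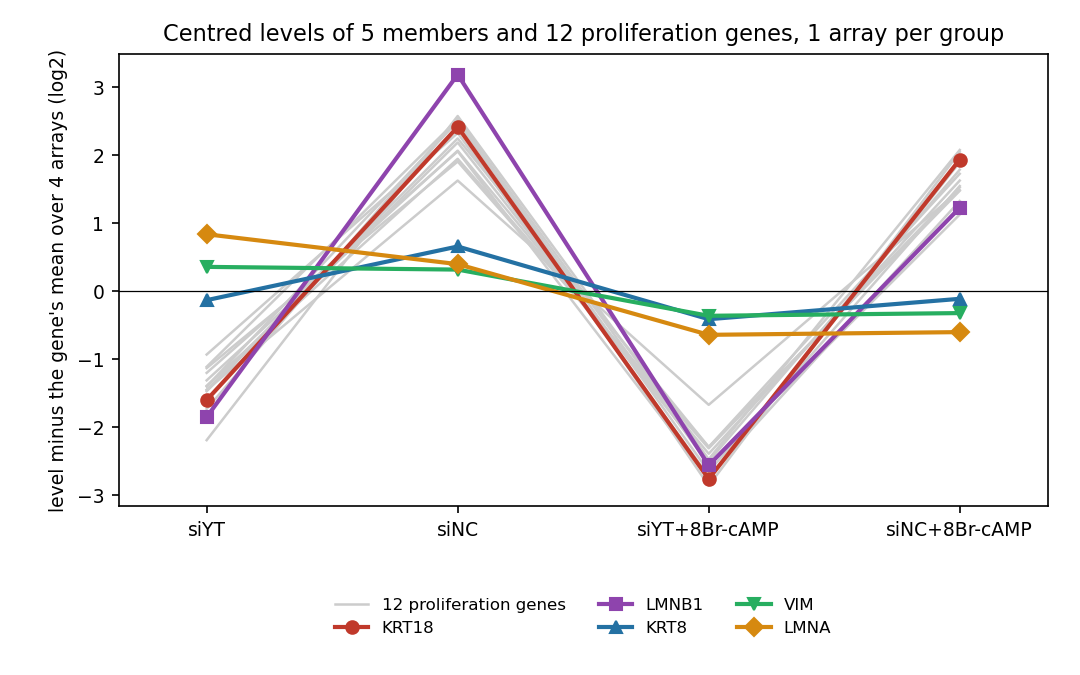
Level of each gene less its mean over the 4 arrays, on the log2 scale (vertical axis), by group (horizontal axis), with 1 array a group and lines that join the values of 1 gene. KRT18 and LMNB1 run with the 12 proliferation genes (grey), low in both siYT groups, while KRT8, VIM and LMNA stay within 1 of their means.

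Other genes of the filament and lamina systems came from lists. Of 61 other intermediate filament genes 50 were measured, and 44 of these stayed under the filter on all 4 arrays. In both media 2 were called lower and 0 higher, where 3.89% and 3.44% of all genes were called lower and higher. Only 6 of the 50 reached the filter and could be called, against 9752 of all 17687 genes, so these shares are not alike in what they count. The 2 were KRT33B and KRT31, type I keratins of hair that resemble each other in sequence. KRT33B was at 5.36 in siYT and 8.40 in siNC, and at 5.36 in siYT+8Br-cAMP and 6.62 in siNC+8Br-cAMP. KRT31 was at 5.19 in siYT and 7.77 in siNC, and at 5.19 in siYT+8Br-cAMP and 6.26 in siNC+8Br-cAMP. All siYT values of both genes lay under the filter, and probes may not tell such close relatives apart. The list median was -0.12 without and 0.01 with 8Br-cAMP, close to that of all genes.

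Of 21 desmosome and cytolinker genes, which anchor keratins at junctions and cross-link filaments, 1 was lower and 1 higher by the call in both media, and 19 met it in neither direction, close to the 3.89% and 3.44% of all genes. Without 8Br-cAMP 2 were called higher and 1 lower, beside 7.60% and 7.32% of all genes. With it 4 were called higher and 2 lower, beside 5.52% and 5.94%. The list medians were 0.15 without and 0.36 with 8Br-cAMP. DSG2, the desmosomal cadherin of simple epithelia, was at 9.06 in siYT and 10.29 in siNC, and at 8.59 in siYT+8Br-cAMP and 9.67 in siNC+8Br-cAMP. DSC3, a desmocollin, was at 11.35 in siYT and 10.26 in siNC, and at 12.75 in siYT+8Br-cAMP and 10.24 in siNC+8Br-cAMP. Desmoplakin, encoded by DSP, which ties keratins to desmosomes, differed by 0.41 and 0.88. The list held none called in the same direction with 8Br-cAMP after both siRNAs, beside 1.74% of all genes called higher and 1.31% lower.

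Of 18 measured lamina partners and lamin-processing genes, the call in both media was met by 3 that were lower and 0 that were higher, beside 3.89% and 3.44% of all genes. The list medians of 0.01 and -0.00 stood at those of all genes. NEMP1, an inner nuclear membrane protein, was at 8.70 in siYT and 11.50 in siNC, and at 7.59 in siYT+8Br-cAMP and 10.62 in siNC+8Br-cAMP. TMPO, which encodes the LAP2 proteins that bind lamins and chromatin, was at 8.13 in siYT and 10.42 in siNC, and at 6.75 in siYT+8Br-cAMP and 9.73 in siNC+8Br-cAMP. LBR, the lamin B receptor, was at 9.30 in siYT and 11.53 in siNC, and at 8.48 in siYT+8Br-cAMP and 10.47 in siNC+8Br-cAMP. In contrast to these, ZMPSTE24, the protease that matures lamin A, differed by 0.17 and -0.26.

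**Figure D4:**
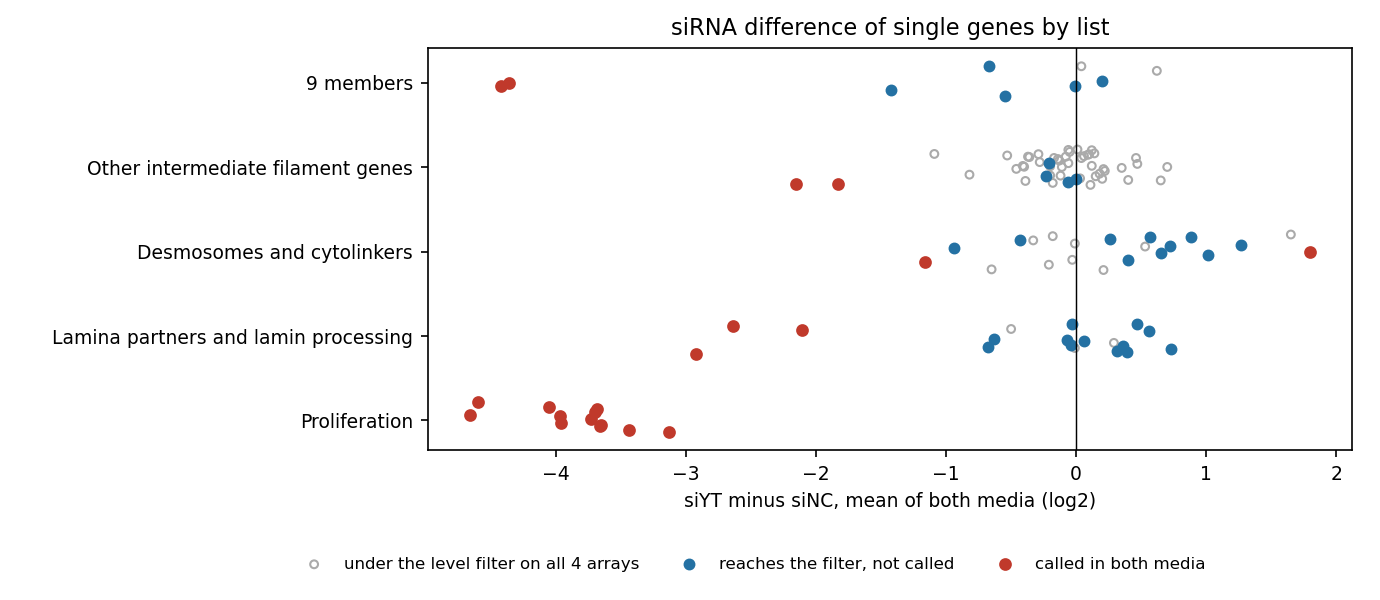
Mean siRNA difference of both media on the log2 scale (horizontal axis), with 1 point for each gene, for the 9 genes and 4 further lists (rows, with vertical scatter only to part the points). Open points lie under the level filter everywhere and red points were called in both media. All 12 proliferation genes are called lower, against 2 of the 9 filament and lamin genes and 2 of the 50 other filament genes.

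The genes next to KRT18 were not called in both media. In RefSeq annotation (GRCh38.p14) the genes KRT80, KRT7, KRT8 and KRT18 lie in 1 stretch with the other type II keratins, and KRT8 and KRT18 overlap. Of 24 measured genes from KRT80 to TNS2, 8 reached the filter, and the rest could not be called. KRT18 was the 1 called in both media, beside 3.89% of all genes called lower and 3.44% higher. That count is near these shares, so nothing is read from the lack of other calls. EIF4B, the next coding gene after KRT18, was at 13.82 in siYT and 13.77 in siNC, and at 13.46 in siYT+8Br-cAMP and 13.98 in siNC+8Br-cAMP. TNS2, which follows EIF4B, was higher by 1.45 in siYT than in siNC, at 7.60 and 6.16. With 8Br-cAMP it differed by 0.23. KRT80 was called lower without 8Br-cAMP only, as given above. The annotation lists 68 pseudogenes named for KRT18 and 52 for KRT8, whose transcripts could reach the same probes. Of these KRT18P55 alone was measured, between 3.18 and 3.74, under the filter on all arrays.

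Some markers of other cells moved beside the siRNA results. Of 8 measured stromal and theca markers, 2 were called higher in both media (DCN and LUM) and 0 lower, beside 3.44% and 3.89% of all genes. Without 8Br-cAMP 4 were called higher, with PDGFRA (2.53) and PDGFRB (1.87) as the others, beside 7.60% of all genes. The list had a summed level of 74.4 in siYT and 61.6 in siNC, and of 69.2 in siYT+8Br-cAMP and 61.5 in siNC+8Br-cAMP. It did not move as a whole, since single genes such as DCN and LUM weigh heavily in the sum. THY1 differed by -0.61 without and -0.58 with 8Br-cAMP, and COL1A1 by 0.11 and -0.99. With 8Br-cAMP PDGFRA differed by 0.06 and PDGFRB by 0.47, neither of them called. The theca markers CYP17A1 and INSL3 stayed under the filter on all arrays, as did the leukocyte marker PTPRC and the endothelial marker PECAM1. Of 4 leukocyte markers CD68, which is also a lysosomal protein of other cells, alone reached the filter, so the others could not be called. It was called higher in both media, beside 3.44% of all genes. Its level was 12.69 in siYT and 10.77 in siNC, and 13.15 in siYT+8Br-cAMP and 10.33 in siNC+8Br-cAMP. The part of these markers in the keratin values was not tested.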

How the data were processed

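RNA of 4 KGN cultures was profiled on Clariom S Human arrays. Per the labels, the authors made the deposited log2 values by RMA (Affymetrix Expression Console). Its version and the annotation's build are not given in the sources used here. They ran from 1.39 to 19.36. Groups came from the sample titles. Of 24351 probe sets, 17709 named 1 gene and gave 17687 genes after averaging, by GEO's platform annotation, and unnamed and control probe sets were kept out of the comparisons. RMA gives arrays a shared distribution, so a change common to most genes would not show. Depth has no meaning for arrays, whose small number limits the precision.

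Each difference was that of 2 arrays. The 8Br-cAMP term was also tested with limma 3.58.1 in R 4.3.3 (lmFit and eBayes, additive model, 9.24 prior degrees of freedom, median moderated standard deviation 0.314), with Benjamini-Hochberg adjustment over all genes and a threshold of 0.05; the script was tested on simulated data. No p-value is given for the siRNA. Alternatives were centring each array, cyclic loess, log2 of the linear value plus 32, a filter at 6.95 (the 95th percentile of 612 negative controls) or none, a threshold of 1.5-fold, a trended prior, and, chosen after seeing the data, testing only genes that reached the filter. Named were the 9 genes, both siRNA targets, the 3 nearest profiles of each, and up to 4 genes per list called under both conditions of a comparison, with DSP, ZMPSTE24, EIF4B, KRT18P55, MKI67 and the cell type markers added after their values were seen. The genes, lists and tests were chosen with earlier results of these data known.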

Additional observations from a re-analysis of the deposited data

Results flagged for a closer look

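With 1 array a group, no array could be compared with others of its group. For 4 genes a pair of differences had opposite signs, and whether they differ was not tested. The siRNA difference was 0.25 without and -0.17 with 8Br-cAMP for KRT19, 0.03 and -0.04 for VIM, and 0.44 and -0.04 for LMNA. The 8Br-cAMP difference was -0.09 after siYT and 0.34 after siNC for KRT19, and 0.05 after siYT and -0.12 after siNC for NES. Centring each array turned the signs of both VIM values and of the -0.04 of LMNA. All are smaller than the size of 1 needed for a call, and KRT19 and NES stayed under the level filter on every array.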

How the results depend on the processing

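The calls of single genes, by size and level, stayed the same in 258 of 270 repeats under the alternatives, while 3 were lost and 9 were gained. The filter at 6.95 and the lack of a filter leave each difference as it was. Repeats under them could change a call only through the level, and none changed. No called difference turned sign, while 5 uncalled ones of VIM and LMNA, of at most 0.07 in size, did so after centring or cyclic loess. The 9 all came with the threshold of 1.5-fold, under which 5 genes were called with the siRNA without 8Br-cAMP and 6 with 8Br-cAMP after siNC. The 3 were KRT7 after siYT (0.97 after cyclic loess, 0.99 with log2 of the linear value plus 32) and LMNA after siNC with that last scale, which left 1 called gene after siNC; adding a constant shrinks differences by construction. KRT18 and LMNB1 stayed called with the siRNA in both media under each alternative run. By limma, 1 of the 9 genes passed for 8Br-cAMP after centring each array, 3 after cyclic loess, 3 with the filter at 6.95, 2 with a trended prior and 3 when only genes that reached the filter were tested; in the last of these and with the filter at 6.95 fewer genes were tested, and otherwise the cause was not tested. Over all genes limma called 321, against 515 after centring, 744 after cyclic loess, 759 with the filter at 6.95, 508 with the trended prior, 705 among genes that reached the filter and 0 with log2 of the linear value plus 32, where 2769 had an unadjusted p under 0.05. Centring moved the median siRNA difference of all genes with 8Br-cAMP to 0.11. No paired analysis was possible because each group was 1 array, and no array could be left out for the same reason. Signals under the filter of 6.22, as for KRT19, NES and the siYT values of LMNB1, give no reliable size.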
